A study of Homo sapiens with 12 samples.

Results

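Expression of 10 genes grouped under the name pan-leukocyte was followed in 2 lymphoma cell lines. How widely each of them is shared among lineages of white blood cells was not examined. The genes were LAPTM5, CD53, PTPRC, CD37, CD52, LCP1, CORO1A, ARHGDIB, RUBCNL and RAC2, given as a named set, and each was read from the probe set annotated to its symbol and to no other. All 10 had exactly 1 such probe set, so the set makes up 10 of the 18417 genes tested. LAPTM5, CD53 and RUBCNL had been picked because their values differ widely between the lines. Their differences that involve U-H01 are therefore given as descriptions with no test, and the other 7 genes were tested in every comparison.

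U-H01 comes from Hodgkin lymphoma, and HBL-1 from diffuse large B-cell lymphoma of the activated B-cell-like class. Both lines are long-term cultures of malignant B-lineage cells and carried short-hairpin RNAs that doxycycline switches on. Per the labels' protocols, hairpins against RelB and cRel were delivered with different sequences for each target, each transduced population was split, and doxycycline was given to one part only. The 12 arrays comprised 4 of U-H01 labelled induced, 4 of U-H01 uninduced, 2 of HBL-1 induced and 2 of HBL-1 uninduced. U-H01 was represented by populations B1 and B2, with a second sequence named in the labels of the induced B2 arrays, and HBL-1 by population C, each at 2 time points. The uninduced arrays carried the same hairpin constructs, so no group was free of them. The labels do not say which subunit each population's hairpin targets, and only the HBL-1 labels spell out that the time points are days. U-H01 grew in RPMI medium with more serum than HBL-1, so a difference between lines cannot be told apart from a difference in medium.

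As background, pan-leukocyte genes encode parts of the machinery that blood cells use for membrane signalling, actin remodelling and lysosomal turnover. LAPTM5 is a lysosomal membrane protein that promotes the breakdown of antigen receptors, CD53 and CD37 are tetraspanins that organise partner proteins in the membrane, and PTPRC encodes CD45, the receptor tyrosine phosphatase used to mark leukocytes. CD52 encodes a small lipid-anchored surface glycoprotein, LCP1 the actin-bundling protein L-plastin, CORO1A the actin-binding coronin of blood cells, RAC2 a small GTPase of blood cells that acts on actin and ARHGDIB an inhibitor that holds small GTPases in the cytosol. RUBCNL, also known as Pacer, encodes a factor that promotes the maturation of autophagosomes. The malignant cells of Hodgkin lymphoma are known for having lost much of the B-cell programme, which is the textbook setting for asking which leukocyte genes such a line retains.

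Promoters are shown for LAPTM5, CD53 and RUBCNL, picked for wide line differences, and for LCP1, which lies near RUBCNL and differed little. That contrast follows in part from the picking, and nothing is read from it. Each window holds 250 bases before and 50 bases after a RefSeq gene start in assembly GRCh38.p14, read along the gene's own strand, and capitals mark the letters GAGGAA or, on the other strand, TTCCTC. LAPTM5 lies on the minus strand at chr1:30757725-30758024, the CD53 windows on the plus strand at chr1:110870960-110871259 and chr1:110872898-110873197, LCP1 on the minus strand at chr13:46182128-46182427, and the RUBCNL windows on the minus strand at chr13:46387203-46387502 and chr13:46389993-46390292.
LAPTM5: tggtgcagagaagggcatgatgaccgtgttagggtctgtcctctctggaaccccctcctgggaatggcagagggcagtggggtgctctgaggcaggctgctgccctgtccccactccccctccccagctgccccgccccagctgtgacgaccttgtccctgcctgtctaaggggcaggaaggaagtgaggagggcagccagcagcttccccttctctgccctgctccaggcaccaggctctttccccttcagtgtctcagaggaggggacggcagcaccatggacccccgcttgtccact
CD53, first start: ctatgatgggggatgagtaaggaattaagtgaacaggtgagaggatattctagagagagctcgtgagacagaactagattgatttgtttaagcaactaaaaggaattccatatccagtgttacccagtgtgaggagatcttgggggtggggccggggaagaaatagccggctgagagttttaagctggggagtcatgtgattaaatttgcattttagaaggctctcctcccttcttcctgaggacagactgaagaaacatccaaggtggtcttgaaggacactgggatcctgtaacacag
CD53, second start: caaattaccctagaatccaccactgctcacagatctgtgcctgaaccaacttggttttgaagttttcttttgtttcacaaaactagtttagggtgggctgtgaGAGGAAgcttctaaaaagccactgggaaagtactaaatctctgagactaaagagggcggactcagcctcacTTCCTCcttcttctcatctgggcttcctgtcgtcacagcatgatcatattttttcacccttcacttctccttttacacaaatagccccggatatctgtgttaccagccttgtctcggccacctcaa
LCP1: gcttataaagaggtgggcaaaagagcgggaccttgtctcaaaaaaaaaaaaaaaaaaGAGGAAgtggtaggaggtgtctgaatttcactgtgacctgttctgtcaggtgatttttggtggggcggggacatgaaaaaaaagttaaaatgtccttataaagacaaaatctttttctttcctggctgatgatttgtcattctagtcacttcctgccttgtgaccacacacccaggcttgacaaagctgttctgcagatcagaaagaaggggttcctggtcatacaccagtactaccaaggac
RUBCNL, window at the lower coordinate: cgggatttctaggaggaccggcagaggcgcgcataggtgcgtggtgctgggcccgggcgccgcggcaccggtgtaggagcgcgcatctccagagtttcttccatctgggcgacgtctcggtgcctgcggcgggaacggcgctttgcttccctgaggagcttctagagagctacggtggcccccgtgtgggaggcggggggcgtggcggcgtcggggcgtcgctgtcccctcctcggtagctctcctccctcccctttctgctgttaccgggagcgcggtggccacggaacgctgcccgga
RUBCNL, window at the higher coordinate: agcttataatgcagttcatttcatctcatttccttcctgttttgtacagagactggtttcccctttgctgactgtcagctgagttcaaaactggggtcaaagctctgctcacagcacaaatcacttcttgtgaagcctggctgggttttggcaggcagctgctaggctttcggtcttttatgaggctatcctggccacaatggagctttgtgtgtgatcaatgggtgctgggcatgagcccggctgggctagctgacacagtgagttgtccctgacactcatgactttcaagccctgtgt

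RefSeq windows were matched by symbol for 8 of the 10 genes, with 12 windows in all. CD37 and RAC2 are named only. The letters searched on both strands were GAGGAA, a form of the site bound by ETS-family factors, TGTGGT, the core of the site bound by RUNX factors, and the NF-kB consensus. GAGGAA occurred in 5 of the 12 windows, those of CD52, LCP1, CORO1A, 1 of ARHGDIB and the second of CD53, and in 27.9% of all 35116 promoter windows of the table. In CD53 it began at positions -147 and -76 counted from the gene start, and in LCP1 at -193. TGTGGT occurred in 1 window, that of LCP1 at -31 on the other strand, where it is left in lower case, against 13.1% of all windows. The NF-kB consensus occurred in 0 of the 12, against 11.3% of all windows. A match is a description of letters, not of a bound site.

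Values are deposited log2 levels, given for U-H01 in the order B1 at time points 1 and 2 and B2 at time points 1 and 2 (replicates 1 to 4) and for HBL-1 at time points 1 and 2 (replicates 1 and 2). On this scale a difference of 1 is a 2-fold change, and array medians over the genes tested lay between 6.10 and 6.33. Within a group, correlations between arrays over genes were 0.991 to 0.996. HBL-1 induced and uninduced arrays correlated at 0.992 to 0.994. U-H01 arrays labelled induced stood apart: they correlated at 0.893 to 0.909 with U-H01 uninduced arrays and at 0.903 to 0.915 with HBL-1 arrays, while U-H01 uninduced arrays correlated at 0.886 to 0.898 with HBL-1 arrays. In a check of identity 4 of 8 arrays from U-H01 did not match the others, and the 8 arrays showed 2 distinct patterns. The check does not tell which of the 2 patterns is that of U-H01. RELB, the gene of RelB, averaged 7.25 ± 0.11 in U-H01 labelled induced and 7.40 ± 0.13 in U-H01 uninduced (SD, n = 4 each), a difference that did not pass (limma, adjusted p = 0.209), and REL, the gene of cRel, averaged 10.16 ± 0.16 and 9.96 ± 0.08 in the same order (adjusted p = 0.0716). In HBL-1, REL averaged 9.25 ± 0.16 in induced and 9.74 ± 0.06 in uninduced arrays (SD, n = 2 each; limma, adjusted p = 0.121). The log2 difference of REL there was -0.49 with a 95% interval of -0.75 to -0.22. RELB averaged 7.48 ± 0.12 and 7.67 ± 0.0013 in the same order (adjusted p = 0.744 in limma). The HBL-1 groups did not overlap in REL or RELB, as in 41.3% of all genes. Neither target passed as lower in either line, which does not show that neither fell, so directions rest on the labels. The groups of U-H01 are compared below by label, since the labels and a difference between cells cannot be told apart. Separate cultures for the arrays of a group are not stated in the labels, and p-values reflect only the spread among these arrays, part or all of which may be technical.

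HBL-1 kept all 10 genes above the median level of the array on every array. U-H01 labelled induced kept 7, namely CD53, PTPRC, CD37, LCP1, CORO1A, ARHGDIB and RAC2, with CD52 and RUBCNL below the median on every array and LAPTM5 on both sides of it. U-H01 uninduced kept 6, the same ones without CD53, and had LAPTM5, CD53, CD52 and RUBCNL below the median on every array. These counts include LAPTM5, CD53 and RUBCNL, which had been picked for line differences, and nothing is read from their part in them. Of the 7 genes not picked, only CD52 lay below the median in any group, in both U-H01 groups alike. The median as a mark of presence was chosen after the values were seen, and a level below it or just above it may be background. In U-H01 labelled induced CD37 passed the mark narrowly on the B2 arrays, at 6.26 and 6.73. Those levels were the 51.3 and 57.9 percentiles of their arrays. In bulk samples such as these, fewer cells of a type and less RNA per cell cannot be told apart.

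**Figure D1:**
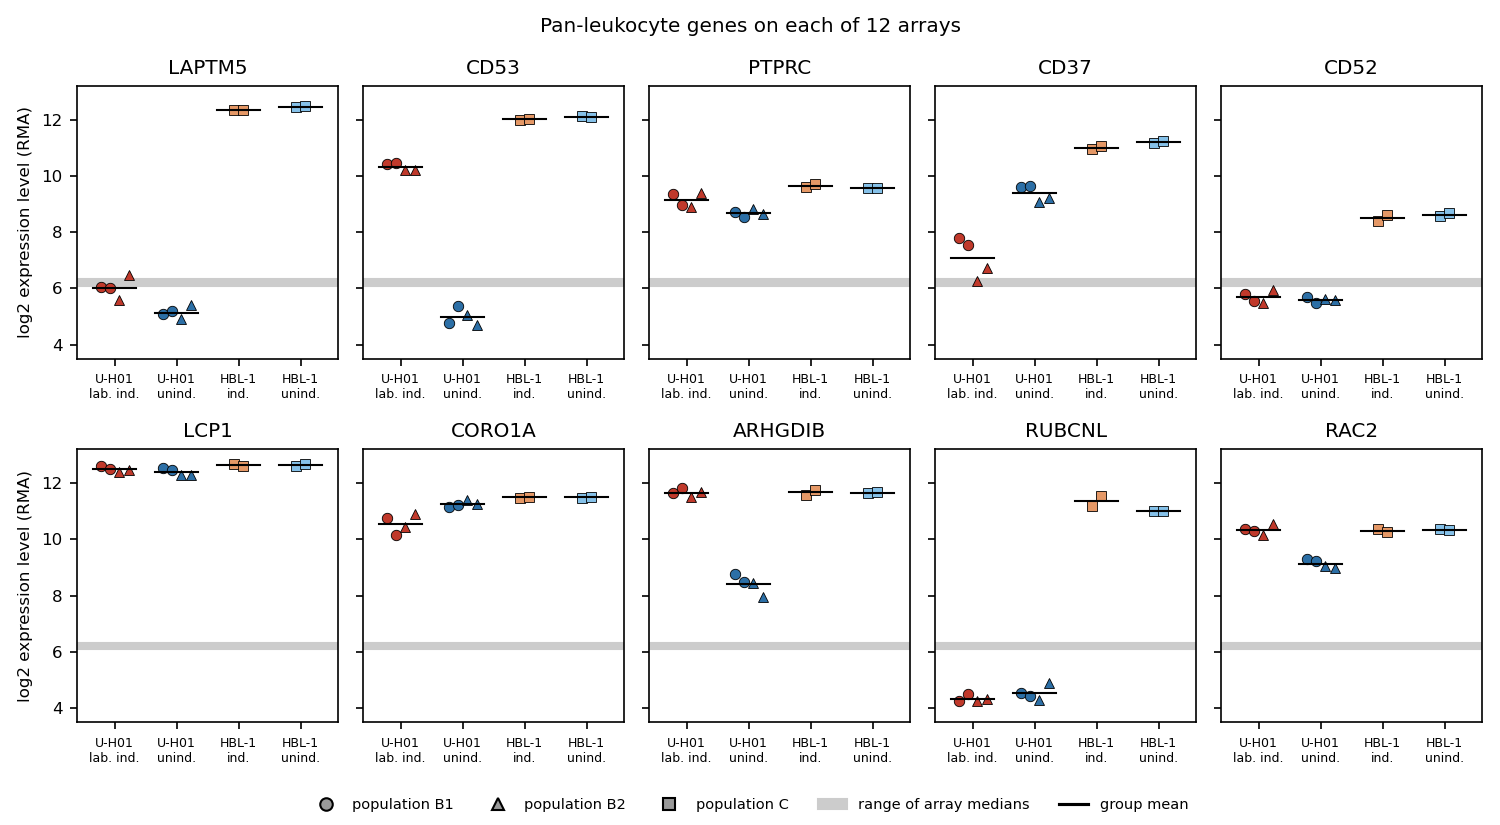
Log2 expression level (vertical axis) of each of the 10 genes on each of the 12 arrays, by group along the horizontal axis (lab. ind., labelled induced; ind., induced; unind., uninduced), with the population given by the symbol, group means as lines and the range of array medians, 6.10 to 6.33, as a grey band. All 10 genes lie above the band in HBL-1, RUBCNL and CD52 lie below it in both U-H01 groups, and CD53 lies above it in U-H01 labelled induced and below it in U-H01 uninduced.

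Against U-H01 uninduced, U-H01 labelled induced had higher levels of PTPRC, ARHGDIB and RAC2 and lower levels of CD37 and CORO1A. These were 5 of the 7 genes that had not been picked, with 3 higher and 2 lower, and over all genes tested 45.8% passed, 22.4% higher and 23.5% lower. Of the 5, CD37, ARHGDIB and RAC2 differed 2-fold or more, as did 13% of all genes. Groups did not overlap in the same 5 genes, against 41.1% of all genes. Against all HBL-1 arrays, U-H01 uninduced had lower levels of 6 of the 7 and a higher level of 0, while 47.5% of all genes passed, 23.2% higher and 24.3% lower. The arrays of the 2 lines did not overlap in 7 of the 7, against 44.9% of all genes. U-H01 labelled induced had lower levels than HBL-1 of 4 of the 7, PTPRC, CD37, CD52 and CORO1A, and a higher level of 0, with 42.7% of all genes passing, 19.7% higher and 23% lower. Groups did not overlap in 5 of the 7, against 39.7% of all genes. With the 3 picked genes counted by the same threshold, the counts were 7, 9 and 7 of 10 in the same order of comparisons, and nothing is read from those additions. Passing means an adjusted p under 0.05 in limma, with the Benjamini-Hochberg method run over 18417 genes. The 3 comparisons share arrays, so their results are not independent of each other.

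**Figure D2:**
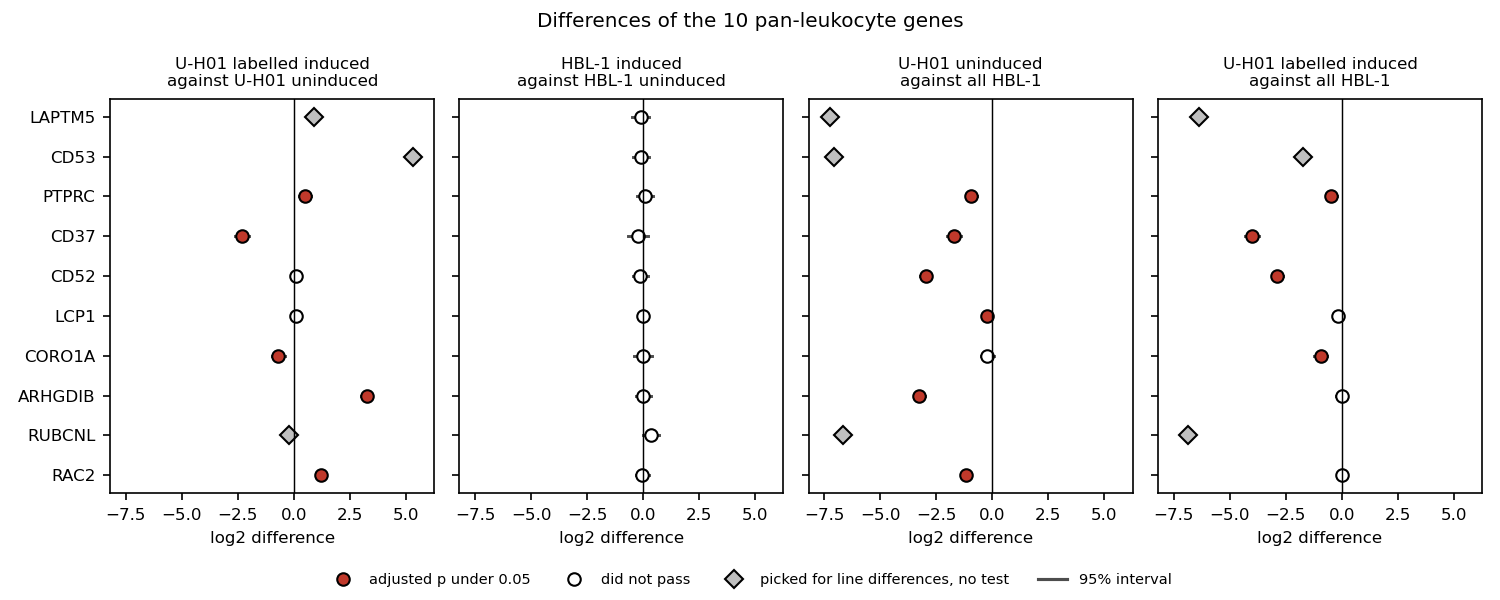
Log2 difference (horizontal axis) of each of the 10 genes in 4 comparisons, first-named group minus second, with 95% intervals. Filled circles had an adjusted p under 0.05, open circles did not pass, and grey diamonds mark LAPTM5, CD53 and RUBCNL where no test was made. In HBL-1 induction all 10 points are open, and against HBL-1 no filled circle lies to the right of 0.

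LAPTM5 and RUBCNL lay far under HBL-1 in both U-H01 groups. LAPTM5 read 6.07, 6.001, 5.59 and 6.46 in U-H01 labelled induced, 5.08, 5.19, 4.90 and 5.40 in U-H01 uninduced, 12.33 and 12.36 in HBL-1 induced and 12.45 and 12.48 in HBL-1 uninduced. The 2 U-H01 groups lay next to each other without overlap, and both lay far below HBL-1. The log2 difference was -6.38 ± 0.13 (SE) in U-H01 labelled induced against HBL-1, a measured 83.2-fold, and -7.27 ± 0.13 in U-H01 uninduced against HBL-1, a measured 153.9-fold. Between U-H01 labelled induced and U-H01 uninduced it was 0.89 ± 0.13. Because 7 of the 8 U-H01 levels of LAPTM5 were under the array median, they may be background and these folds may understate the difference.

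RUBCNL read 4.26, 4.50, 4.24 and 4.31 in U-H01 labelled induced, 4.52, 4.44, 4.28 and 4.90 in U-H01 uninduced, 11.17 and 11.54 in HBL-1 induced and 10.99 and 11.03 in HBL-1 uninduced. On 7 of the 8 U-H01 arrays RUBCNL lay under the lower quartile of all genes, which was 4.61 to 4.78 on an array, and the 2 U-H01 groups overlapped. The log2 difference was -6.86 ± 0.11 (SE) in U-H01 labelled induced against HBL-1 and -6.65 ± 0.11 in U-H01 uninduced against HBL-1, measured folds of 115.8 and 100.3. Between the U-H01 groups RUBCNL differed by -0.21 ± 0.11.

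The tetraspanin genes CD53 and CD37 took opposite directions between the U-H01 groups. CD53 read 10.41, 10.46, 10.22 and 10.20 in U-H01 labelled induced, 4.77, 5.38, 5.07 and 4.71 in U-H01 uninduced, 11.999 and 12.03 in HBL-1 induced and 12.13 and 12.09 in HBL-1 uninduced. The 3 sets of arrays did not overlap, with U-H01 labelled induced between the other U-H01 group and HBL-1 and nearer to HBL-1. The CD53 level was 5.34 ± 0.12 (SE) higher in U-H01 labelled induced than in U-H01 uninduced, a measured 40.5-fold. Against HBL-1 the log2 difference was -1.74 ± 0.12 in U-H01 labelled induced and -7.08 ± 0.12 in U-H01 uninduced.

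CD37 read 7.81, 7.55, 6.26 and 6.73 in U-H01 labelled induced, 9.61, 9.66, 9.07 and 9.22 in U-H01 uninduced, 10.95 and 11.05 in HBL-1 induced and 11.18 and 11.26 in HBL-1 uninduced. No group overlapped another, and the order was U-H01 labelled induced, U-H01 uninduced and HBL-1, from low to high. CD37 was 4.95-fold lower in U-H01 labelled induced than in U-H01 uninduced (log2 difference -2.31 ± 0.14, limma, adjusted p = 3.29e-08), lower in all 4 pairs of arrays from the same population and time point. It was 16.3-fold lower in U-H01 labelled induced than in HBL-1 (-4.02 ± 0.14, adjusted p = 1.72e-10) and 3.29-fold lower in U-H01 uninduced than in HBL-1 (-1.72 ± 0.14, adjusted p = 4.88e-07).

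**Figure D3:**
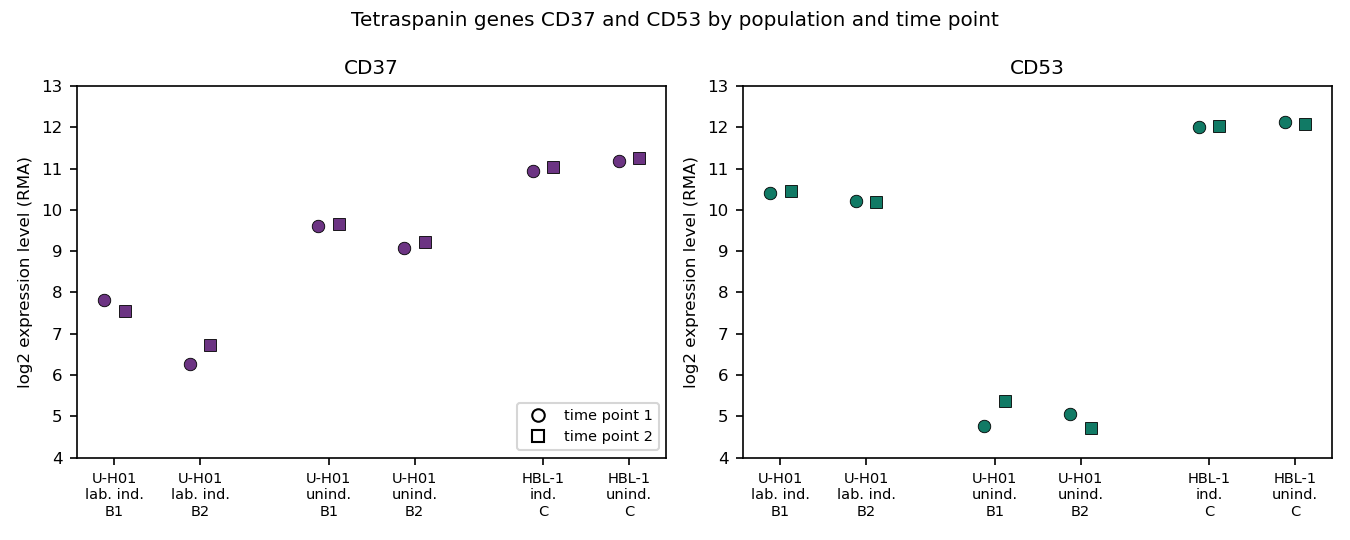
Log2 expression level (vertical axis) of CD37 (left panel) and CD53 (right panel) by group and population along the horizontal axis, with circles for time point 1 and squares for time point 2. CD37 is lowest and CD53 intermediate in U-H01 labelled induced, and the B2 arrays of CD37 lie under the B1 arrays in both U-H01 groups.

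PTPRC and CD52 encode leukocyte surface proteins, and PTPRC lay above the array median in every group while CD52 did so in HBL-1 alone. PTPRC read 9.35, 8.97, 8.91 and 9.40 in U-H01 labelled induced, 8.70, 8.53, 8.82 and 8.66 in U-H01 uninduced, 9.60 and 9.72 in HBL-1 induced and 9.56 and 9.58 in HBL-1 uninduced. Its groups were close, yet U-H01 labelled induced lay above U-H01 uninduced and under HBL-1 without overlap. PTPRC was 0.48 ± 0.12 higher in U-H01 labelled induced than in U-H01 uninduced (limma, adjusted p = 0.00485). Against HBL-1 the log2 difference was -0.45 ± 0.12 in U-H01 labelled induced (adjusted p = 0.00742) and -0.94 ± 0.12 in U-H01 uninduced (adjusted p = 2.4e-05). The call against HBL-1 in U-H01 labelled induced was lost without HBL-1 uninduced replicate 1 or HBL-1 induced replicate 2, with an adjusted p of 0.0508 in limma in each.

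CD52 read 5.81, 5.54, 5.49 and 5.94 in U-H01 labelled induced, 5.68, 5.47, 5.63 and 5.58 in U-H01 uninduced, 8.39 and 8.62 in HBL-1 induced and 8.58 and 8.67 in HBL-1 uninduced. The U-H01 groups overlapped under the array median, and HBL-1 lay above both. CD52 differed by 0.10 ± 0.11 between U-H01 labelled induced and U-H01 uninduced (95% interval -0.13 to 0.34; limma, adjusted p = 0.494). It was 7.31-fold lower in U-H01 labelled induced than in HBL-1 (-2.87 ± 0.11, adjusted p = 2.94e-10) and 7.86-fold lower in U-H01 uninduced than in HBL-1 (-2.97 ± 0.11, adjusted p = 1.74e-10).

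The actin-binding genes LCP1 and CORO1A lay above the upper quartile of all genes, 7.88 to 8.06, on every array. LCP1 read 12.60, 12.51, 12.39 and 12.46 in U-H01 labelled induced, 12.55, 12.47, 12.29 and 12.28 in U-H01 uninduced, 12.67 and 12.62 in HBL-1 induced and 12.61 and 12.69 in HBL-1 uninduced. Its group means spanned the narrowest range of the 10 genes, 12.40 to 12.65, and the U-H01 groups overlapped. LCP1 differed by 0.09 ± 0.08 between U-H01 labelled induced and U-H01 uninduced (95% interval -0.07 to 0.26; limma, adjusted p = 0.366) and by -0.16 ± 0.08 between U-H01 labelled induced and HBL-1 (adjusted p = 0.118; 0.0318, past the threshold, with limma's trend and robust options). LCP1 was lower in U-H01 uninduced than in HBL-1 (-0.25 ± 0.08, limma, adjusted p = 0.0145). That call was lost without U-H01 uninduced replicate 3 (adjusted p = 0.0549) and without HBL-1 induced replicate 1 or HBL-1 uninduced replicate 2 (adjusted p = 0.093 in each).

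CORO1A read 10.76, 10.15, 10.44 and 10.89 in U-H01 labelled induced, 11.14, 11.22, 11.41 and 11.26 in U-H01 uninduced, 11.47 and 11.51 in HBL-1 induced and 11.49 and 11.49 in HBL-1 uninduced. U-H01 labelled induced lay under both other sets of arrays and spread over a wider range than they did. CORO1A was 1.62-fold lower in U-H01 labelled induced than in U-H01 uninduced (-0.70 ± 0.13, limma, adjusted p = 0.000703) and 1.91-fold lower than in HBL-1 (-0.93 ± 0.13, adjusted p = 6.71e-05). Between U-H01 uninduced and HBL-1 it differed by -0.23 ± 0.13 (95% interval -0.52 to 0.05) and did not pass (limma, adjusted p = 0.176; 0.024, past the threshold, with only the arrays of the groups' lines in the fit), although the arrays of the 2 lines did not overlap.

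ARHGDIB and RAC2, which encode a GTPase inhibitor and a small GTPase, both overlapped HBL-1 in U-H01 labelled induced and lay under it in U-H01 uninduced. ARHGDIB read 11.65, 11.82, 11.51 and 11.67 in U-H01 labelled induced, 8.75, 8.49, 8.43 and 7.96 in U-H01 uninduced, 11.59 and 11.76 in HBL-1 induced and 11.63 and 11.69 in HBL-1 uninduced. U-H01 labelled induced overlapped HBL-1, and every U-H01 uninduced array lay far under both. ARHGDIB was 9.52-fold higher in U-H01 labelled induced than in U-H01 uninduced (3.25 ± 0.11, limma, adjusted p = 1.34e-10) and 9.56-fold lower in U-H01 uninduced than in HBL-1 (-3.26 ± 0.11, adjusted p = 1.17e-10). Between U-H01 labelled induced and HBL-1 the difference was -0.01 ± 0.11 with a 95% interval of -0.26 to 0.24 (adjusted p = 0.975), and its sign changed with the arrays and the normalization used.

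RAC2 read 10.36, 10.31, 10.16 and 10.56 in U-H01 labelled induced, 9.29, 9.23, 9.04 and 8.99 in U-H01 uninduced, 10.37 and 10.25 in HBL-1 induced and 10.36 and 10.32 in HBL-1 uninduced. U-H01 labelled induced overlapped HBL-1 here too, and every U-H01 uninduced array lay under both. RAC2 was 2.31-fold higher in U-H01 labelled induced than in U-H01 uninduced (1.21 ± 0.10, limma, adjusted p = 4.31e-07) and 2.28-fold lower in U-H01 uninduced than in HBL-1 (-1.19 ± 0.10, adjusted p = 4.62e-07). Between U-H01 labelled induced and HBL-1 it differed by 0.02 ± 0.10, with a 95% interval of -0.19 to 0.24 (adjusted p = 0.894).

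Levels of B-cell and Hodgkin markers differed between the same groups. Of 11 B-cell markers measured, 6 lay above the array median on every array of U-H01 labelled induced, 2 in U-H01 uninduced (PAX5 and POU2AF1) and 10 in HBL-1, and their mean level on an array was 7.24 to 7.58, 5.66 to 5.82 and 9.40 to 9.50 in that order. Between U-H01 labelled induced and U-H01 uninduced, 6 of the 11 were higher and 1 lower past the threshold, as were 5 and 9 of 16 markers of Hodgkin Reed-Sternberg cells, 3 and 0 of 15 of T and NK cells, 0 and 1 of 13 of myeloid cells and 3 and 2 of 15 of stromal, endothelial and epithelial cells, where 45.8% of all genes passed. Of those 16 Hodgkin markers, 10 lay above the median in U-H01 labelled induced, 13 in U-H01 uninduced and 10 in HBL-1. Their array means were 7.20 to 7.38, 8.44 to 8.57 and 7.02 to 7.08 in that order. TNFRSF8 averaged 11.59 ± 0.10, 6.89 ± 0.21 and 6.63 ± 0.09 (SD), opposite to these counts between the U-H01 groups. GATA3 averaged 4.81 ± 0.18, 10.00 ± 0.48 and 4.94 ± 0.10, in the direction of the counts. With 5 higher and 9 lower, the list does not tell which U-H01 group is more Hodgkin-like. T and NK cell markers above the median numbered 3, 1 and 2 of 15 in the same order, myeloid markers 0, 0 and 1 of 13 (MRC1, in HBL-1), and stromal, endothelial and epithelial markers 3, 4 and 4 of 15. Their array means stayed between 5.18 and 5.36, 4.99 and 5.13, and 5.09 and 5.21 for the T and NK cell list, and for the myeloid list between 4.31 and 4.55, 4.25 and 4.51, and 4.70 and 4.83, in that order of groups. Values at 0 do not occur on this scale. The part of these markers in the differences of the 10 genes was not tested.

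In HBL-1, no change of the 10 genes with doxycycline passed the threshold. Of the 10 genes, 0 passed between HBL-1 induced and HBL-1 uninduced in limma with Benjamini-Hochberg adjustment, and 0.608% of all genes did, 0.418% higher and 0.19% lower (112 genes, with 1807 at an unadjusted p under 0.05). RUBCNL differed most, at 11.17 and 11.54 in induced and 10.99 and 11.03 in uninduced arrays, a difference of 0.35 ± 0.16 (95% interval -0.0033 to 0.69; limma, adjusted p = 0.52). CD37 differed by -0.22 ± 0.20, LAPTM5 by -0.12 ± 0.18, CD52 by -0.12 ± 0.15 and CD53 by -0.09 ± 0.17, with adjusted p of 0.852 or more in limma. PTPRC differed by 0.09 ± 0.17, and LCP1, CORO1A, ARHGDIB and RAC2 by 0.03 or less in either direction. Arrays did not overlap between the 2 groups in 5 of the 10 genes, against 41.3% of all genes. Their 95% intervals reached at most 0.69 upward, for RUBCNL, and -0.66 downward, for CD37. With 2 arrays a group, changes inside these intervals could not be told from none.

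The change with the induction label was also set against itself between the lines, in a comparison added after the data were seen. Of the 7 genes not picked, 4 differed between U-H01 and HBL-1 in that change, ARHGDIB (3.23 ± 0.20) and RAC2 (1.24 ± 0.17) in the positive direction and CD37 (-2.09 ± 0.25) and CORO1A (-0.70 ± 0.23) in the negative one, and 32.5% of all genes did, 15.5% in the positive and 17% in the negative direction. PTPRC (0.39 ± 0.21), CD52 (0.23 ± 0.19) and LCP1 (0.10 ± 0.13) missed the threshold (limma, adjusted p = 0.187, 0.427 and 0.656). Without U-H01 uninduced replicate 2 or 3, or any 1 of the HBL-1 arrays, 3 of the 7 passed.

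No change of the 10 genes with time passed the threshold. Between time point 2 and time point 1, 0 of 10 passed in U-H01 and 0 of 10 in HBL-1 (limma with Benjamini-Hochberg adjustment), as did 0% of all genes in each line, with 1440 genes in U-H01 and 787 in HBL-1 at an unadjusted p under 0.05. In U-H01 the arrays of the time points overlapped in all 10 genes, where 1.94% of all genes did not overlap, and LAPTM5 differed most, by 0.35 ± 0.13 (95% interval 0.08 to 0.63; limma, adjusted p = 0.634). In HBL-1 they did not overlap in CD52, CORO1A, ARHGDIB and RAC2, 4 of 10, against 31.4% of all genes.

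The U-H01 populations B2 and B1 differed in CD37. In U-H01 labelled induced CD37 was 6.26 and 6.73 in B2 and 7.81 and 7.55 in B1, and in U-H01 uninduced 9.07 and 9.22 in B2 and 9.61 and 9.66 in B1. B2 lay under B1 without overlap in both. CD37 was 2.27-fold lower in B2 than in B1 among arrays labelled induced (-1.18 ± 0.15, 95% interval -1.502 to -0.86; limma, adjusted p = 0.0111), 1 of 10 genes to pass, against 0.109% of all genes (20 genes, with 1558 at an unadjusted p under 0.05) and 0.0814% lower. This call was lost when all probe sets of the table were tested together (adjusted p = 0.152) and without U-H01 labelled induced replicate 1 (0.0564) or replicate 3 (0.0835), and its adjusted p ranged from 0.000636 to 0.152 over all settings tried. In U-H01 uninduced CD37 differed by -0.49 ± 0.15 and did not pass (limma, adjusted p = 0.1; 0.0482 to 0.0487, past the threshold, without any 1 of the U-H01 labelled induced arrays), with 0 of 10 genes passing against 3.44% of all genes, and 3270 genes at an unadjusted p under 0.05. The difference between populations in the change with the label was -0.69 ± 0.21 for CD37 and did not pass (limma, adjusted p = 0.188), with 0 of 10 genes passing against 0.608% of all genes, and 2124 genes at an unadjusted p under 0.05. Groups of 2 arrays did not overlap between B2 and B1 in 3 of 10 genes in U-H01 labelled induced (CD53, CD37 and LCP1), against 30% of all genes, and in 5 of 10 in U-H01 uninduced (CD37, LCP1, CORO1A, ARHGDIB and RAC2), against 51.8% of all genes.

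Genes of the same families, listed as widely expressed relatives, passed in both directions. How widely each of them is expressed was not examined. Of 28 relatives measured, 8 were higher and 8 lower in U-H01 labelled induced than in U-H01 uninduced, with a median log2 difference of 0.05 against 0.03 over all genes. In U-H01 uninduced 13 were higher and 6 lower than in HBL-1 (median 0.14, all genes -0.03), and in U-H01 labelled induced 7 were higher and 10 lower than in HBL-1 (median 0.01, all genes -0.0025). Higher and lower together, these were 57.1%, 67.9% and 60.7% of the relatives, against 45.8%, 47.5% and 42.7% of all genes. In HBL-1 induction 0 of the 28 passed, against 0.608% of all genes.

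Beside LAPTM5 stands LAPTM4A, a ubiquitous lysosomal relative, at 9.42 ± 0.07 in U-H01 labelled induced, 11.37 ± 0.05 in U-H01 uninduced and 9.71 ± 0.08 in HBL-1 (SD, n = 4 each). Its log2 differences were -1.95 in U-H01 labelled induced against U-H01 uninduced and 1.66 in U-H01 uninduced against HBL-1, and it passed in both, while those of LAPTM5 were 0.89 and -7.27. RUBCN, which encodes the autophagy inhibitor Rubicon, averaged 8.63 ± 0.13 in U-H01 labelled induced, 7.77 ± 0.07 in U-H01 uninduced and 10.07 ± 0.28 in HBL-1, and was lower in both U-H01 groups than in HBL-1, as its relative RUBCNL was.

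Among tetraspanins on the list of relatives, CD82, CD63, CD151, TSPAN3 and TSPAN31 were each lower in U-H01 labelled induced than in U-H01 uninduced. Each was also higher in U-H01 uninduced than in HBL-1. TSPAN31 averaged 5.79 ± 0.33 in U-H01 labelled induced, 10.10 ± 0.15 in U-H01 uninduced and 7.88 ± 0.47 in HBL-1, a log2 difference of -4.31 ± 0.15 between the U-H01 groups (limma, adjusted p = 1.42e-10). CD37 shared the first of these directions, CD53 neither. CD81, a partner of the B-cell coreceptor, averaged 9.40 ± 0.11 in U-H01 labelled induced, 9.67 ± 0.07 in U-H01 uninduced and 9.69 ± 0.15 in HBL-1. TSPAN33 averaged 9.03 ± 0.46, 8.50 ± 0.23 and 6.22 ± 0.34 in the same order. It was higher in both U-H01 groups than in HBL-1, with the higher U-H01 mean in the labelled induced group. The U-H01 group means of CD9, TSPAN4, TSPAN6 and TSPAN14 lay nearer to each other than those of CD81.

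The plastin relatives of LCP1 were PLS1, at 7.03 ± 0.26 in U-H01 labelled induced, 6.77 ± 0.12 in U-H01 uninduced and 5.23 ± 0.10 in HBL-1, and PLS3, at 3.80 ± 0.11, 3.78 ± 0.07 and 3.70 ± 0.08 in the same order. PLS1 was higher in both U-H01 groups than in HBL-1, and PLS3 passed in no comparison. CORO1C, a coronin of many tissues, averaged 11.31 ± 0.08 in U-H01 labelled induced, 9.01 ± 0.37 in U-H01 uninduced and 11.11 ± 0.09 in HBL-1. Its log2 difference between U-H01 labelled induced and U-H01 uninduced was 2.30, and that of CORO1A was -0.70.

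Among relatives of ARHGDIB and RAC2, ARHGDIA, which encodes a widely expressed GTPase inhibitor, averaged 9.34 ± 0.12 in U-H01 labelled induced, 8.44 ± 0.06 in U-H01 uninduced and 9.82 ± 0.13 in HBL-1, the same order of U-H01 groups as ARHGDIB over a smaller range. RAC1, the ubiquitous relative of RAC2, averaged 10.61 ± 0.13 in U-H01 labelled induced, 11.67 ± 0.08 in U-H01 uninduced and 10.47 ± 0.11 in HBL-1. It passed with log2 differences of -1.06 in U-H01 labelled induced against U-H01 uninduced and 1.19 in U-H01 uninduced against HBL-1, and those of RAC2 were 1.21 and -1.19.

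**Figure D4:**
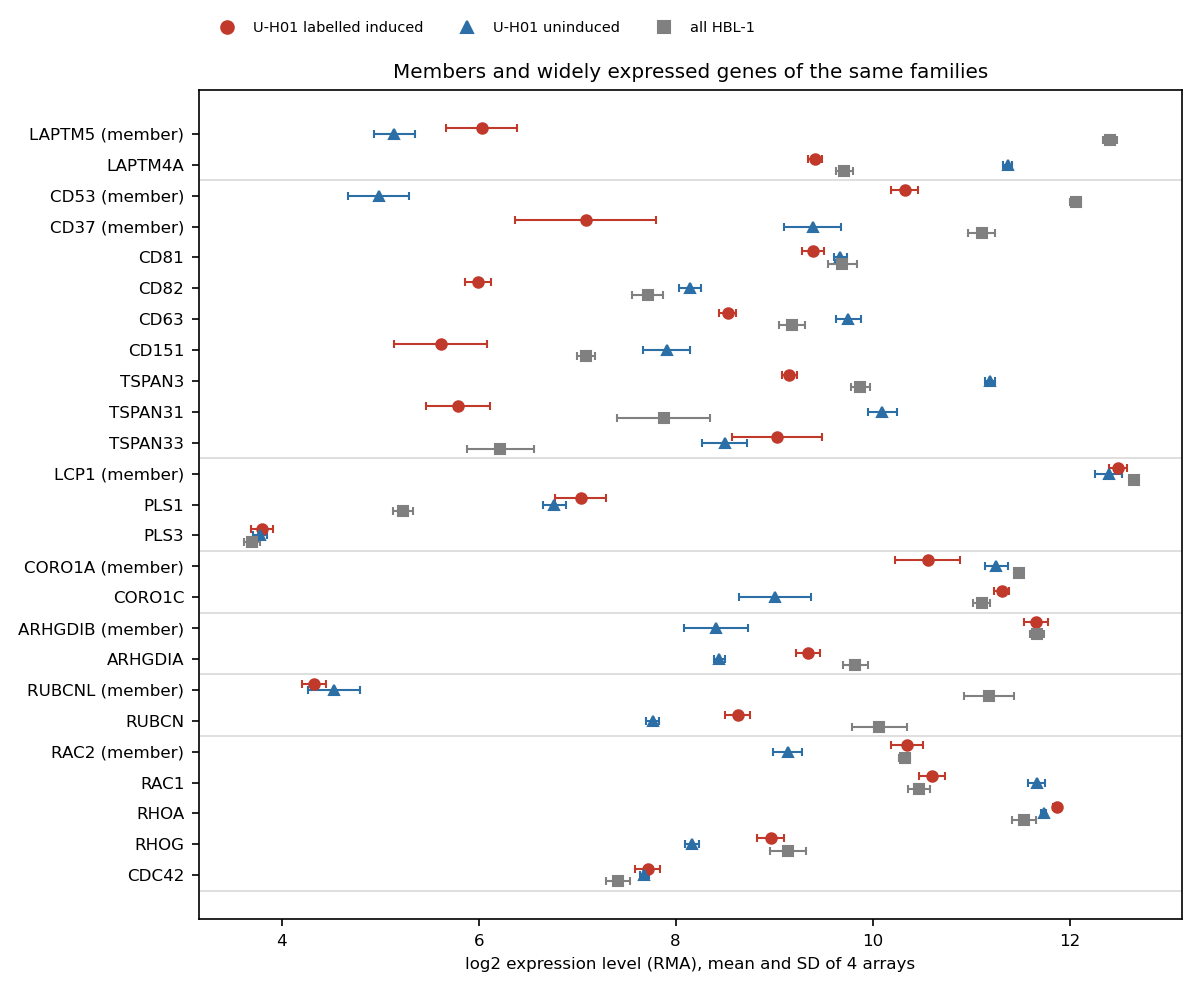
Log2 expression level (horizontal axis, mean and SD of 4 arrays) of 8 of the 10 genes, marked as members, and of family relatives listed as widely expressed. Each gene has 1 row, with circles for U-H01 labelled induced, triangles for U-H01 uninduced and squares for all HBL-1 arrays. Symbols are to be read along a row, since levels of different probe sets are not on a common scale. In RAC2 and RAC1 the U-H01 groups stand in opposite order, and in ARHGDIB and ARHGDIA in the same order.

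Of 58 other leukocyte genes measured, most passed in the comparisons that involve U-H01, in both directions. In U-H01 labelled induced 34 were higher and 15 lower than in U-H01 uninduced, with a median log2 difference of 0.57. Together these were 84.5% of the list, against 45.8% of all genes. Log2 differences were 5.17 for PRKCB, the protein kinase C of B-cell receptor signalling, 4.90 for CD48, a SLAM-family ligand, 4.90 for HCLS1, a cortactin relative of blood cells, and 4.31 for ARHGAP15, an activator of Rac GTP hydrolysis. They were -4.72 for IL10RA, a chain of the interleukin-10 receptor, -3.30 for EVI2B, -2.42 for the integrin adaptor gene APBB1IP and -1.71 for PLEK, the gene of pleckstrin.

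Compared with HBL-1, U-H01 uninduced had higher levels of 15 and lower levels of 34 of the 58 (median -0.50). U-H01 labelled induced had higher levels of 27 and lower levels of 21 (median 0.25). In that order 84.5% and 82.8% of the list passed, against 47.5% and 42.7% of all genes. ITGA4, an integrin chain, was 5.14 higher in U-H01 labelled induced and 5.58 higher in U-H01 uninduced, FERMT3, the integrin activator of blood cells, 4.36 and 3.69 higher, and LCP2, the adaptor SLP-76, 3.93 and 3.31 higher in the same order. TRAF3IP3 was also higher in both, by 3.73 in U-H01 labelled induced and 1.75 in U-H01 uninduced. IL2RG, the common cytokine receptor chain, was 2.35 higher in U-H01 uninduced. It averaged 9.34 ± 0.23 in U-H01 labelled induced and 7.82 ± 0.24 in HBL-1 (SD, n = 4 each). SLA, the gene of a Src-like adaptor, had log2 differences of -5.01 in U-H01 labelled induced and -5.31 in U-H01 uninduced. In the same order PLEK differed by -5.55 and -3.83 and IL10RA by -5.21 and -0.49. The B-cell transcription factor gene SPIB differed by -4.24 and -3.93. HCLS1 (-5.54), PRKCB (-4.82) and the GTPase gene RHOH (-4.71) were lower in U-H01 uninduced. In U-H01 labelled induced, RHOH averaged 7.67 ± 0.37 and HCLS1 9.91 ± 0.07, under HBL-1 at 9.31 ± 0.13 and 10.55 ± 0.06 (SD, n = 4 each). PRKCB averaged 10.09 ± 0.09 there, above HBL-1 at 9.75 ± 0.13. Every log2 difference given for a gene named from this list passed the limma test. In HBL-1 induction 2 of the 58 passed, 3.45% against 0.608% of all genes, and both were higher. They were CYTIP, which encodes a partner of cytohesins, by 1.57 and the chemokine receptor gene CXCR4 by 0.9997, both on the log2 scale.

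**Figure D5:**
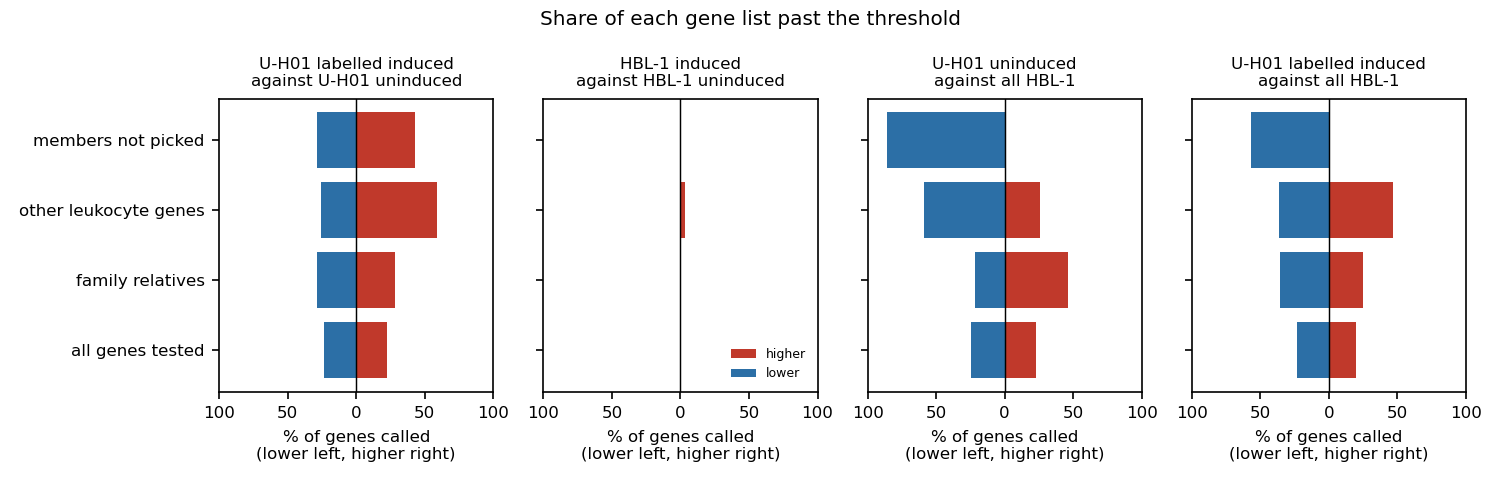
Share of genes with an adjusted p under 0.05 (horizontal axis, percent of each list, higher to the right and lower to the left) for the 7 genes of the set that had not been picked, 58 other leukocyte genes, 28 family relatives and all 18417 genes tested, in 4 comparisons. The 7 genes have no bar to the right in either comparison with HBL-1, while the other leukocyte genes have bars on both sides there.

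Genes with profiles most like those of 4 members were found by the root-mean-square difference over the 12 arrays, after each gene's own mean was taken off, among 18416 genes. For LAPTM5 these were MS4A1, the gene of CD20, at 0.43, IL17RB at 0.47 and CD180 at 0.50, and the same 3 genes stood nearest to RUBCNL, at 0.24, 0.41 and 0.36. MS4A1 averaged 4.52 ± 0.12 in U-H01 labelled induced (SD, n = 4), 4.49 ± 0.10 in U-H01 uninduced (n = 4), 10.97 ± 0.11 in HBL-1 induced and 10.98 ± 0.01 in HBL-1 uninduced (n = 2 each). Nearest to CD53 were the sialyltransferase gene ST6GAL1 at 0.53, HCLS1 at 0.69 and RASGRP3 at 0.69, and nearest to PTPRC were HDHD5 at 0.11, PIAS2 at 0.11 and FXR1 at 0.12. The distances are not scaled to the spread of a member. Over the 12 arrays the SD was 3.39 for LAPTM5, 3.33 for RUBCNL, 3.15 for CD53 and 0.43 for PTPRC. A smaller distance for PTPRC is therefore not a closer match. With 3 clusters of arrays behind each profile, the measure describes these arrays and no more.

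LCP1 and RUBCNL lie on chromosome 13 with 1 protein-coding gene, LRRC63, between them. Where LCP1 was high on every array, LRRC63 averaged 3.44 ± 0.10 in U-H01 labelled induced, 3.89 ± 0.06 in U-H01 uninduced and 3.49 ± 0.05 in HBL-1 (SD, n = 4 each), below the array median in each. On the far side of RUBCNL, LRCH1 averaged 7.79 ± 0.16, 6.92 ± 0.19 and 7.66 ± 0.06 and ESD 7.51 ± 0.21, 8.26 ± 0.10 and 9.56 ± 0.10 in the same order of groups. On the far side of LCP1, CPB2 averaged 3.68 ± 0.12, 3.26 ± 0.09 and 3.45 ± 0.05 and ZC3H13 8.74 ± 0.20, 8.14 ± 0.07 and 8.52 ± 0.05. RUBCNL had been picked for its line difference, so nothing is read from its larger difference beside these 5 neighbours. The ESD mean too was lower in both U-H01 groups than in HBL-1. For each of the other neighbours, the U-H01 means lay on both sides of the HBL-1 mean. A cause shared by the region was not tested.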

How the data were processed

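RNA from 12 single-colour arrays was analysed. Log2 levels were deposited by the authors. The submitters' processing notes name RMA and Partek without versions. RMA brings arrays to like distributions, which can hide a shift of all genes, and compresses low levels towards background. The deposited log2 values ran from 2.07 to 14.3. Of 33297 probe sets, 19460 were annotated to 1 symbol, 1754 to several and 12083 to none. Only the first were tested, as 18417 genes, with the highest mean over the 12 arrays standing for the 769 genes with several.

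Groups came from the sample titles. One linear model in limma 3.58.1 under R 4.3.3 (lmFit, eBayes) held the 4 groups, the population and the time point within each line, with 7 terms and 5 residual degrees of freedom. Populations were compared with 8 terms and 4 residual degrees of freedom. Tests were two-sided with Benjamini-Hochberg adjustment over all genes, and calls had an adjusted p under 0.05. On simulated data for U-H01 labelled induced against uninduced over 18417 genes, the fit recovered 38 of 67 genes changed 1.41-fold, 65 of 67 changed 2-fold and 66 of 66 changed 4-fold. For HBL-1 induced against uninduced it recovered 16 of 67, 54 of 67 and 66 of 66. The number of arrays limits the precision.

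Per the labels' protocols, an induced array and the uninduced array with its population and time point derive from the same transduced cells. Their deviations from the group means correlated at 0.14 and -0.03 in B1, 0.10 and 0.03 in B2 and 0.10 in HBL-1.

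The 10 genes and all lists were chosen with earlier results of these data known. Named in every comparison were the 10 genes. Family relatives with 1 probe set of their own could be named beside them, and some were. Also named were the 4 largest rises and falls among called other leukocyte genes without overlap, and the 3 nearest profiles of LAPTM5, CD53, RUBCNL and PTPRC. RELB, REL and the chromosome neighbours were added as context. Alternatives tried were quantile normalization, a level filter, all probe sets, trend and robust variance, groups alone, the replicate block, only the lines compared, the mean over a gene's probe sets, a 2-fold threshold and each array left out. Promoters came from RefSeq, assembly GRCh38.p14. Python 3.11.15 and matplotlib 3.10.9 drew the figures.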

Additional observations from a re-analysis of the deposited data

Results flagged for a closer look

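The change with the induction label differed between U-H01 and HBL-1 in 4 of the 7 genes that had not been picked for line differences. Over all genes tested, 32.5% differed in that change. By the test of the difference itself in limma, the difference was 3.23 for ARHGDIB (adjusted p = 8.27e-08), 1.24 for RAC2 (adjusted p = 0.000111), -2.09 for CD37 (adjusted p = 3.26e-05) and -0.70 for CORO1A (adjusted p = 0.0337), in log2 units, U-H01 minus HBL-1. Of these 7 genes, 3 passed without U-H01 uninduced replicate 2 or 3 or without any 1 of the HBL-1 arrays. Of the picked genes, the difference was 5.43 for CD53 and 1.01 for LAPTM5. Both genes were higher in all 4 U-H01 pairs and lower in both HBL-1 pairs, and this was not tested because they had been picked for line differences. RUBCNL, also picked, had a difference of -0.55 and changed in mixed directions over the U-H01 pairs. Since 4 of 8 arrays from U-H01 did not match the others in identity, an effect of induction and a difference between cells cannot be told apart. No array stood out by Dixon's ratio in the 20 groups of 4 arrays examined.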

How the results depend on the processing

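Counts of the 10 genes called, with LAPTM5, CD53 and RUBCNL counted by the same threshold, were 7 between the U-H01 groups, 0 in HBL-1 induction, 9 for U-H01 uninduced and 7 for U-H01 labelled induced against HBL-1. With 1 array left out they were 7 to 8, 0 to 0, 8 to 9 and 6 to 7, for both time contrasts 0 to 0, for B2 against B1 0 to 1 in U-H01 labelled induced and 0 to 1 in U-H01 uninduced, and for the difference between the populations 0 to 0. Relatives called were 13 to 16, 0 to 0, 17 to 20 and 15 to 18, other leukocyte genes 44 to 49, 1 to 3, 46 to 50 and 43 to 49, and the genes differing in change between lines 3 to 4.

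Only 4 of the 7 between the U-H01 groups also differed 2-fold or more. Testing all probe sets together left 0 genes called for B2 against B1 in U-H01 labelled induced and 1 other leukocyte gene in HBL-1 induction. Trend and robust options called 1 gene, CD37, for B2 against B1 in U-H01 uninduced (limma, adjusted p = 0.0419, 0.0419 to 0.384 over settings), and brought LCP1 past the threshold in U-H01 labelled induced against HBL-1 (adjusted p = 0.0318, 0.0318 to 0.372 over settings). With only the arrays of the lines compared, CORO1A passed in U-H01 uninduced against HBL-1 (adjusted p = 0.024, 0.024 to 0.355 over settings). With only the HBL-1 arrays fitted, 4 relatives and 11 other leukocyte genes were called in HBL-1 induction, from few residual degrees of freedom. The replicate block left every count of calls as it was, with 7 for U-H01 labelled induced against uninduced, and changed no call.

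Signs turned where differences were near 0. After quantile normalization RAC2 in HBL-1 induction was 0.016 and ARHGDIB in U-H01 labelled induced against HBL-1 was 0.012, and against HBL-1 uninduced alone ARHGDIB was 0.0014. With 1 array left out, that ARHGDIB difference ran from -0.11 to 0.096 (positive without U-H01 labelled induced replicate 1 or 3, HBL-1 uninduced replicate 1 or HBL-1 induced replicate 2) and RAC2 in U-H01 labelled induced against HBL-1 from -0.095 (without U-H01 labelled induced replicate 4) to 0.085. Between the U-H01 groups CD52 ran from -0.015 (without the same replicate) to 0.22. In HBL-1 induction LCP1 ran from -0.067 to 0.061, CORO1A from -0.017 to 0.019, ARHGDIB from -0.042 to 0.074 and RAC2 from -0.065 to 0.0062. The causes were not tested. Time contrasts were not run with groups alone, which has no time term, and averaging probe sets changes none of the 10 genes, which have 1 each.

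Signal over background was not measured for the levels under the array median, those of CD52 and RUBCNL in both U-H01 groups, of LAPTM5 on 7 of the 8 U-H01 arrays and of CD53 in U-H01 uninduced, so the size of folds from there is not settled.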
